A study of Mus musculus with 12 samples.

Results

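The genes described here are 9 nuclear receptors and 1 nuclear receptor coactivator, namely the fatty acid receptors Pparg and Ppard, the coactivator Ppargc1b, the retinoid X receptors Rxra and Rxrb, the vitamin D receptor Vdr, the orphan receptors Nr4a1, Nr4a2 and Nr4a3, and the glucocorticoid receptor Nr3c1. These 10 of the 38887 genes in the files were chosen by name, with earlier results of these data known. Of them 9 passed the filter on low counts that left 12846 genes for testing, whereas Nr4a3 did not. The 10 genes were measured by RNA-Seq of poly(A) RNA in 12 libraries of bone marrow-derived macrophages (BMMs). The cells were grown with M-CSF from 3- to 4-month-old mice, and either left untreated (M0) or given 20 ng/ml interleukin-4 (IL-4) for 8 h (M2). KO mice had loxP sites around exons 4 and 5 of Igf2bp2, the gene of an RNA-binding protein, and Cre came from the myeloid Lyz2 locus, whereas the WT littermates had no floxed allele and did or did not carry Cre. Each of the groups WT M0, WT M2, KO M0 and KO M2 held 3 libraries from 3 mice. The comparisons address how macrophages without IGF2BP2 differ at rest and in the state that IL-4 induces.

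Nuclear receptors are transcription factors whose activity is set by small lipophilic ligands. PPARγ and PPARδ bind fatty acids and their derivatives, form heterodimers with RXRs and take part in the gene program of macrophages exposed to IL-4, for which PGC-1β, the product of Ppargc1b, serves as a coactivator of oxidative metabolism. The vitamin D receptor also pairs with RXRs, the glucocorticoid receptor mediates the anti-inflammatory action of glucocorticoids, and the NR4A receptors have no known natural ligand and are controlled largely through rapid induction of their mRNA.

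The libraries held 20011792 to 29832430 counts in WT and 26568719 to 39632770 in KO, and within WT, M0 (24942666 to 29832430) was deeper than M2 (20011792 to 22744704) without overlap. KO held 26568719 to 37054582 counts in M0, which overlapped WT, and 27347077 to 39632770 in M2, which did not. Depth thus moved with genotype, without overlap in M2, and, in WT, with treatment, and its part in the results was not tested. All 8 macrophage markers were detected, with summed levels of 5203 to 5603 CPM (counts scaled to the library total with TMM factors) in M0 and 6323 to 6779 CPM in M2. The 7 markers of IL-4-treated macrophages summed to 149 to 318 CPM in M0 and to 6936 to 8467 CPM in M2. Lyz2, into which Cre was inserted, lay at 4185 to 10544 CPM in WT and 11.04 to 33.2 CPM in KO, and effects of this insertion cannot be told apart from those of the Igf2bp2 deletion. Igf2bp2 itself had 76.5 to 118 CPM in WT M0 and 84.9 to 95.9 CPM in KO M0, and 178 to 233 CPM in WT M2 and 129 to 146 CPM in KO M2, so that the genotypes overlapped in M0 but not in M2. A gene-level count includes exons outside the deletion and does not check it. Of the 6 T cell markers, Cd3e, Cd3d, Cd3g and Trac were at 0 in all libraries, but the list summed to 28.4 to 45.1 CPM, with 1 marker above 1 CPM. The 8 neutrophil markers summed to 5.01 to 24.1 CPM, with 4 of them above 1 CPM in each group and Ly6g at 0, and the 6 adipocyte markers to 0 to 0.0329 CPM in M0 and 0.273 to 0.942 CPM in M2, with 4 at 0. The 6 dendritic cell markers summed to 0.259 to 0.624 CPM in M0 and 1.59 to 2.16 CPM in M2. The macrophage, dendritic cell and adipocyte sums thus moved with IL-4 without overlap, and their part in the IL-4 changes of the receptors was not tested. In such bulk samples fewer cells of a type and less RNA per cell cannot be told apart.

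Compared per transcript length, in TPM (abundance of transcripts after division by length), the receptors spanned a wide range of levels. Pparg was the highest in every group, with 36.6 ± 2.85 TPM in WT M0, 59.8 ± 1.62 in WT M2, 39.5 ± 1.70 in KO M0 and 58.2 ± 0.383 in KO M2 (mean ± SD, n = 3). It was followed by Rxrb with 29.7 to 31.5 TPM as group means and by Nr3c1 with 16.9 to 26.8 TPM, and neither overlapped its neighbour in the order in any group. Ppard (6.28 to 8.94 TPM) and Rxra (5.75 to 7.57 TPM) came next and overlapped each other in all groups but KO M2. In M0 the order continued with Nr4a1 (3.67 in WT and 3.22 TPM in KO), Ppargc1b (1.59 and 1.44 TPM) and Vdr (0.917 and 0.437 TPM). In M2 Ppargc1b (3.41 and 2.89 TPM) stood above Nr4a1 (1.31 and 1.40 TPM) and Vdr (1.18 and 1.65 TPM), and the libraries of the last 2 genes overlapped. Nr4a2 had group means of 0.233 to 0.437 TPM, and its libraries overlapped those of Vdr in KO M0 only. Among the genes tested, the mean of Pparg exceeded 66.8% of genes in WT M0 and 77.8% in WT M2, and that of Vdr 10.2% and 13.1%.

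**Figure D1:**
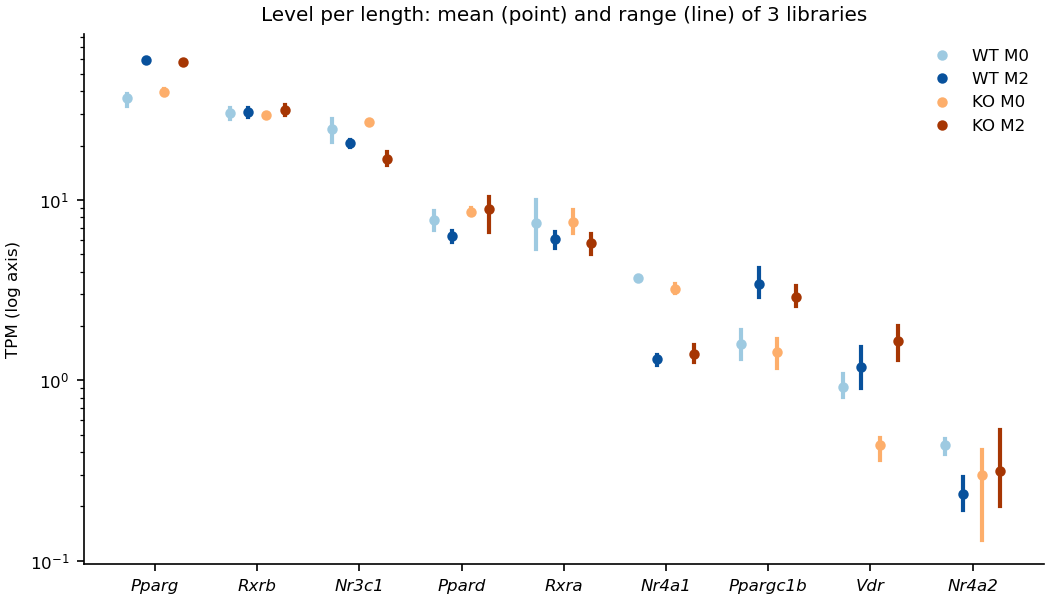
Level of 9 receptor genes in TPM on a log axis, as the mean (point) and the range (line) of 3 libraries in each of the 4 groups; Nr4a3, which is at 0 in 4 libraries, is not drawn. Pparg leads with group means of 36.6 to 59.8 TPM and Nr4a2 is last with 0.233 to 0.437 TPM.

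IL-4 shifted several of the receptors, with the largest called log2 changes in Nr4a1 and Ppargc1b in WT and in Vdr, Nr4a1 and Ppargc1b in KO. In WT, Pparg, Ppargc1b and Vdr rose and Nr4a1 and Nr3c1 fell, which made 5 of the 9 tested (edgeR quasi-likelihood test, adjusted p under 0.05 over all genes), at a background of 50.0% of all genes called, 24.9% higher and 25.1% lower. In KO, Rxrb rose in addition, and 6 of 9 were called, 4 higher and 2 lower, where 52.8% of all genes were called, 26.8% higher and 26.0% lower. The libraries with and without IL-4 did not overlap for 7 of the 9 genes in WT and 6 of 9 in KO, which for all genes was the case in 55.2% and 63.4%. In this fit, which does not pair the libraries of a mouse, the shares of called receptors are thus near those of all genes. With the mouse as a block, 5 receptors and 7015 of the 12846 genes were called in WT, and 8 receptors and 7472 genes in KO. In KO the shares were then further apart. Without the block the median log2 fold change of the 9 was -0.22 in WT and 0.18 in KO, and that of all genes -0.0076 and 0.014.

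**Figure D2:**
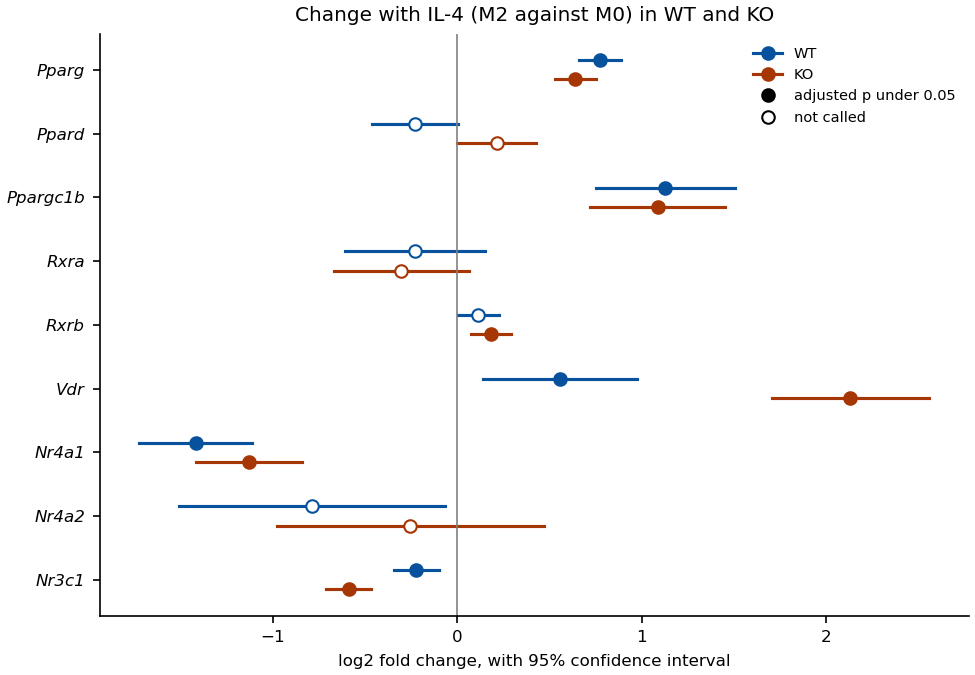
Log2 fold change from M0 to M2 with its 95% confidence interval for the 9 tested genes in WT (blue) and KO (brown); filled points passed an adjusted p of 0.05. Vdr changed by 0.56 in WT and 2.13 in KO, and Nr4a1 fell in both genotypes.

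Loss of IGF2BP2 went with fewer differences. In M0 Vdr was lower in KO and the only 1 of 9 genes that passed, at a background of 9.78% of all genes called, 5.50% higher and 4.27% lower. In M2 Ppard was higher and Nr3c1 lower in KO, 2 of 9 genes, at a background of 2.68%, with 1.21% higher and 1.46% lower. The genotypes did not overlap for Pparg, Vdr, Nr4a1 and Nr4a2 in M0 and for Ppard, Rxrb and Nr3c1 in M2, and of all genes 31.1% and 24.8% did not overlap. The response to IL-4 itself differed between KO and WT for Vdr and Nr3c1, 2 of 9 genes. In this test of the interaction 3.24% of all genes were called, 1.11% with a higher and 2.13% with a lower response in KO. The receptors were chosen with earlier results of these data known, so that an excess over these shares was not tested. Leaving out 1 library moved the counts of called genes. In M2, 1 receptor and 185 genes in all were called without WT M2 replicate 1, 1 and 298 without KO M2 replicate 1, and no receptor without WT M2 replicate 2 (34 genes), KO M2 replicate 2 (34) or KO M2 replicate 3 (25), against 344 genes with all libraries. In M0, Vdr was still called but the genes in all fell from 1256 to 461 without WT M0 replicate 2 and to 528 to 745 without any 1 library of KO M0. For the difference between the responses, 416 genes became 183 to 267 without WT M0 replicate 2, WT M2 replicate 2, any 1 library of KO M0 or KO M2 replicates 2 or 3, and 643 without WT M0 replicate 1. For 3 against 3 libraries the smallest p of an exact permutation test is 0.1, so that calls rest on the spread shared by all libraries.

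**Figure D3:**
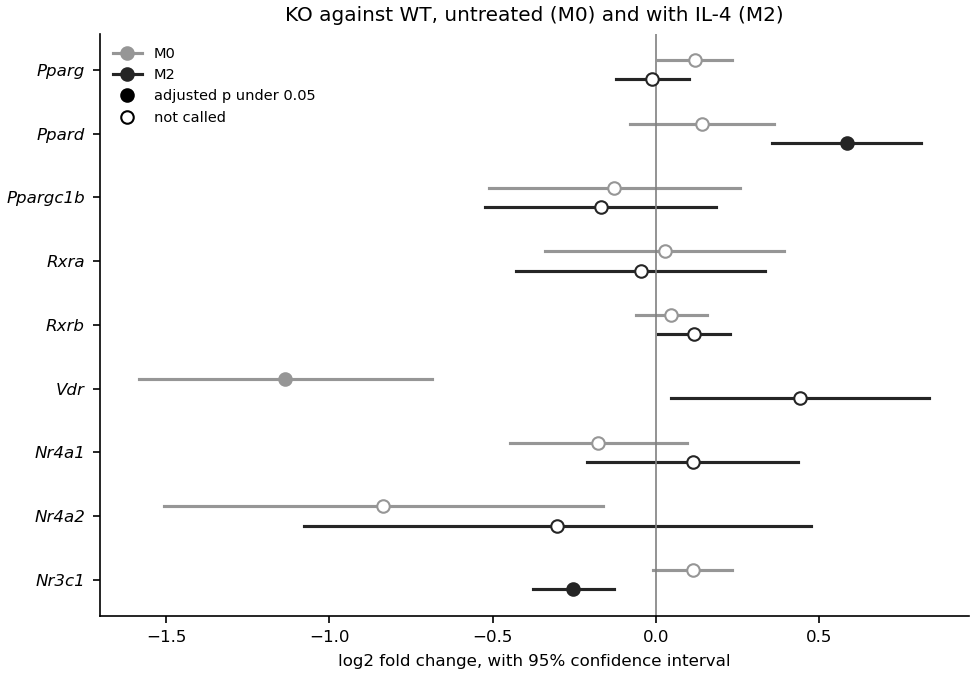
Log2 fold change of KO against WT in M0 (grey) and M2 (black) with its 95% confidence interval for the 9 tested genes; filled points passed an adjusted p of 0.05. Vdr lies at -1.13 in M0, and in M2 Ppard lies at 0.58 and Nr3c1 at -0.25.

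Pparg (chromosome 6, 115360951 to 115490399, plus strand, GRCm38) encodes PPARγ, a regulator of lipid uptake in macrophages. It measured 36.9, 36.7 and 34.2 CPM in WT M0 and 59.5, 63.1 and 61.6 CPM in WT M2. In KO the values were 38.0, 37.9 and 41.2 CPM in M0 and 62.8, 59.5 and 60.5 CPM in M2. All M2 libraries lay above all M0 libraries, and in M2 the genotypes overlapped. IL-4 raised Pparg by a log2 of 0.77 (SE 0.05, edgeR adjusted p = 8.71e-08) in WT and 0.64 (SE 0.05, 3.68e-07) in KO, and these responses differed by -0.13 (95% CI -0.29 to 0.027, adjusted p = 0.379). In M0 all KO libraries were above the WT libraries, but the log2 difference of 0.12 (95% CI 0.0061 to 0.23) was not called (edgeR adjusted p = 0.175). In M2 the difference was -0.012, with a 95% confidence interval of -0.12 to 0.099.

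Ppargc1b (chromosome 18, 61298136 to 61400431, minus strand) also rose with IL-4 in both genotypes. WT M0 libraries had 3.65, 3.06 and 2.65 CPM and WT M2 libraries 6.497, 8.09 and 5.98 CPM. KO M0 libraries had 2.87, 3.37 and 2.35 CPM and KO M2 libraries 5.65, 6.86 and 5.73 CPM. The M2 values exceeded the M0 values without overlap, while the genotypes overlapped in both states. The log2 fold change was 1.13 (SE 0.17, edgeR adjusted p = 0.000134) in WT and 1.09 (SE 0.17, 0.000132) in KO, with a difference between the responses of -0.042 (95% CI -0.57 to 0.48, adjusted p = 0.952). KO against WT gave -0.13 (95% CI -0.51 to 0.26) in M0 and -0.17 (95% CI -0.52 to 0.18) in M2.

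Ppard (chromosome 17, 28232700 to 28301474, plus strand), the widely expressed receptor of the family, had fold changes of opposite sign with IL-4 in WT and KO. It had 11.3, 10.2 and 11.6 CPM in WT M0 and 9.45, 9.07 and 9.71 CPM in WT M2. In KO it had 11.9, 13.2 and 11.4 CPM in M0 and 11.8, 15.1 and 15.2 CPM in M2. All 3 WT M2 libraries were below all others, and replicate 1 of KO M2 stood apart from the other 2 of its group. Neither response to IL-4 was called (log2 -0.23, SE 0.11, edgeR adjusted p = 0.0967 in WT, and 0.21, SE 0.10, 0.0864 in KO), nor was their difference of 0.44 (95% CI 0.13 to 0.76, 0.128). With the mouse as a block the increase in KO was called (0.21, adjusted p = 0.0455), and without replicate 1 of KO M2 so were the increase (0.32, 0.00677) and the difference (0.55, 0.0313). In M2 Ppard was higher in KO by a log2 of 0.58 (SE 0.10, edgeR adjusted p = 0.0176), which is 1.498-fold. This call was lost without WT M2 replicate 2 (adjusted p = 0.084), KO M2 replicate 2 (0.0717) or KO M2 replicate 3 (0.0852). It was also lost with limma on TPM (adjusted p = 0.152 and 0.153). The mean transcript length assigned to Ppard varied between 2471 and 3008 nt, and KO M2 replicate 1, with the longest, had 6.60 TPM, within the 5.84 to 6.76 TPM of WT M2, and the part of this length in the lost call was not tested.

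Genes on which PPARs are known to act were called in either direction, with shares read against all genes, of which IL-4 raised 24.9% and lowered 25.1% in WT and raised 26.8% and lowered 26.0% in KO. Of 25 listed PPAR targets 22 were tested, and IL-4 raised 8 and lowered 5 in WT and raised 8 and lowered 7 in KO, with median log2 fold changes of 0.057 and 0.021 against -0.0076 and 0.014 for all genes. The fatty acid transporter Cd36 rose by 0.77 in WT and 0.55 in KO, and the transglutaminase Tgm2 by 0.86 and 0.91. The acyl-CoA synthetase Acsl1 fell (-1.08 in WT and -0.63 in KO), and it was the only target whose response was called as different between the genotypes (0.45, SE 0.11, edgeR adjusted p = 0.0424), where 3.24% of all genes were called. Whether calls of listed genes hold with 1 library left out or with other methods was not tested, here and below. In M0 the lipid droplet protein Plin2 (0.33), the fatty acid transporter Slc27a1 (0.27) and the carnitine palmitoyltransferase Cpt1a (0.26) were among 4 targets higher in KO and Acsl1 (-0.44) was the only lower one, where 5.50% of all genes were higher and 4.27% lower, and in M2, with 2.68% of all genes called, no target was called. Among 18 tested coactivators and corepressors, Ncoa3, a coactivator of the p160 family, rose with IL-4 by 1.40 in WT and 1.11 in KO, and the coregulator Cited2 fell (-0.52 and -0.49). In all, IL-4 raised 3 and lowered 2 of these in WT and raised 2 and lowered 7 in KO. In M0 the 3 genes Tbl1xr1 (0.56), Ncoa3 (0.44) and Ncoa1 (0.36) were higher in KO, and in M2 no gene of the list was called. The response of Tbl1xr1, a subunit of the NCoR corepressor complex, was the only one of the 18 called as different between the genotypes (-0.58, adjusted p = 0.00294), beside the same 3.24% of all genes.

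Of the heterodimer partners, Rxrb changed little, whereas the changes of Rxra had wide confidence intervals. Rxrb (chromosome 17, 34031812 to 34038399, plus strand) had 36.2, 34.8 and 34.2 CPM in WT M0, 37.9, 40.2 and 35.8 CPM in WT M2, 35.8, 36.9 and 35.8 CPM in KO M0 and 40.6, 42.1 and 40.6 CPM in KO M2. The KO M2 libraries were above all others, while those of WT M0 and WT M2 overlapped. The increase with IL-4 was called in KO (log2 0.18, SE 0.05, edgeR adjusted p = 0.00682) but not in WT (0.11, SE 0.05, 0.0793), and the difference of 0.070 (95% CI -0.084 to 0.22) was not called (0.658). Without WT M2 replicate 3 the increase in WT was also called (0.16, 0.0296), and with TPM that in KO was not (0.083 and 0.086, adjusted p = 0.349 and 0.347). Rxra (chromosome 2, 27676440 to 27762957, plus strand) had a coefficient of variation of 28.0% in WT M0, where its libraries had 25.8, 18.4 and 14.96 CPM. It had 18.5, 17.0 and 15.1 CPM in WT M2, 17.1, 23.3 and 19.9 CPM in KO M0 and 14.8, 17.9 and 16.2 CPM in KO M2, so that all groups overlapped. The log2 fold change with IL-4 was -0.23 (95% CI -0.61 to 0.15) in WT and -0.30 (95% CI -0.67 to 0.064) in KO, with adjusted p = 0.305 and 0.154. In KO each number had a lower value in M2 than in M0, and with the mouse as a block this decrease was called (-0.30, adjusted p = 0.0123), as it was with only the 6 KO libraries (-0.31, 0.0413). KO against WT was 0.026 (95% CI -0.34 to 0.39) in M0 and -0.047 (95% CI -0.43 to 0.33) in M2.

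Only 3 of 12 listed genes of retinoid metabolism were tested, of which IL-4 raised 2 in either genotype. Of all genes it raised 24.9% in WT and 26.8% in KO. Aldh1a2, an enzyme that makes retinoic acid, rose by a log2 of 5.10 (SE 0.50) in WT and 5.71 (SE 0.48) in KO. Its means were only 0.108 CPM in WT M0 and 0.101 CPM in KO M0, and 3.71 and 4.96 CPM in M2. The size of its change thus rests on M0 levels near 0. Dhrs3, a reductase that turns retinal into retinol, rose by 1.88 and 1.72. Rdh10, which oxidizes retinol, was lower (-0.34) and Dhrs3 higher (0.26) in KO M0. No gene of the list was called in M2 or in the difference between the responses. Of all genes 9.78% were called in M0, 2.68% in M2 and 3.24% for the difference. Of 40 other nuclear receptors 16 were tested, and IL-4 raised 4 and lowered 5 in WT and raised and lowered 5 each in KO, where 50.0% and 52.8% of all genes were called. The retinoic acid receptors led the increases, with Rarb at 2.39 in WT and 1.74 in KO, Rara at 0.86 and 0.93 and Rarg at 0.51 and 0.48. Rarb was low, with means of 0.170 CPM in WT M0, 0.923 in WT M2, 0.308 in KO M0 and 1.06 in KO M2. The liver X receptor Nr1h3, which senses oxysterols, fell (-1.60 and -1.54). In M0, with 9.78% of all genes called, only the clock receptor Nr1d2 was called among the 16, being higher in KO by 0.42, and in M2, with 2.68% of all genes called, only its paralog Nr1d1, by 1.07 (SE 0.18, edgeR adjusted p = 0.0146). No response of these 16 receptors was called as different between KO and WT, where 3.24% of all genes were called.

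Vdr (chromosome 15, 97854425 to 97910630, minus strand), the receptor for active vitamin D, showed the largest difference between the genotypes in M0 and in the response to IL-4 among the 9 genes tested. WT M0 libraries had 1.97, 1.71 and 1.71 CPM from 61, 52 and 44 counts, whereas KO M0 libraries had 0.735, 0.849 and 0.857 CPM from 20, 32 and 31 counts. After IL-4 WT M2 libraries had 2.23, 2.47 and 3.27 CPM from 48 to 64 counts and KO M2 libraries 3.01, 4.30 and 3.45 CPM from 80 to 166 counts. KO thus started below WT without overlap, whereas in M2 the groups overlapped. In M0 the log2 fold change of KO against WT was -1.13 (SE 0.21, edgeR adjusted p = 0.00566), a level of 0.455 times that of WT. In M2 it was 0.44 (95% CI 0.044 to 0.84) and was not called (0.204). IL-4 raised Vdr by 0.56 (SE 0.19, adjusted p = 0.029), or 1.47-fold, in WT and by 2.13 (SE 0.20, 1.35e-06), or 4.38-fold, in KO. The response in KO exceeded that in WT by 1.57 (SE 0.28, 95% CI 0.98 to 2.17, edgeR adjusted p = 0.0107). By number, WT had log2 changes of 0.17, 0.53 and 0.93, and KO of 2.04, 2.34 and 2.01, so that all KO values were above all WT values.

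**Figure D4:**
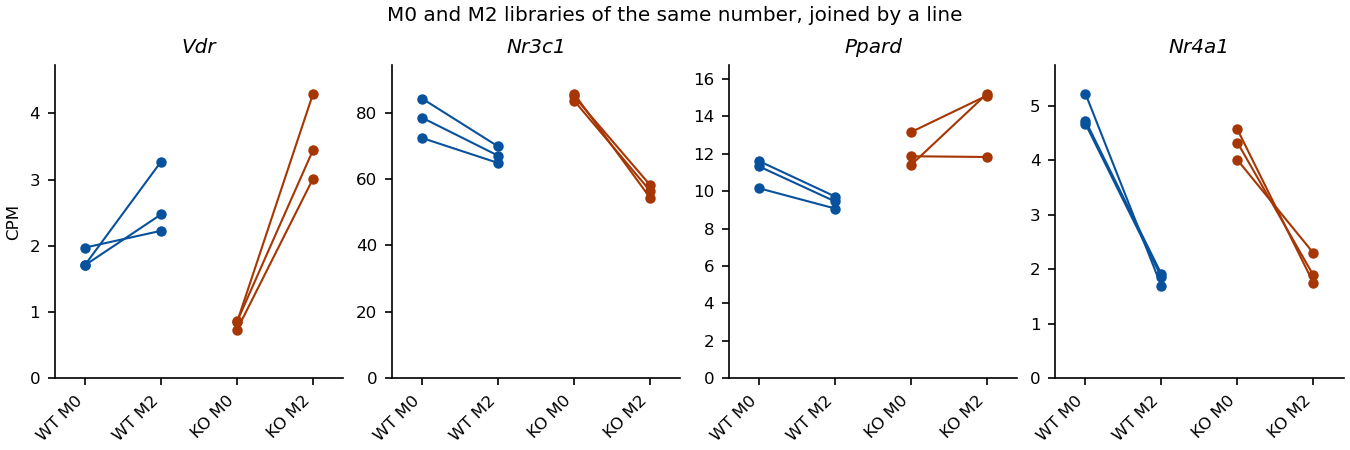
CPM of Vdr, Nr3c1, Ppard and Nr4a1 in M0 and M2, with a line between libraries of the same number in WT (blue) and KO (brown). The Vdr lines of KO run from 0.735 to 0.857 CPM up to 3.01 to 4.30 CPM and are steeper than those of WT, and those of Nr3c1 fall further in KO.

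The difference in Vdr between the responses was called without any 1 of the 12 libraries (log2 1.42 to 1.75, adjusted p = 0.0095 to 0.0375), as was the difference in M0 (0.00924 to 0.0265). The increase in WT was not called without WT M0 replicate 2 (adjusted p = 0.0794), WT M0 replicate 3 (0.069) or WT M2 replicate 3 (0.138), nor with only the 6 WT libraries (0.0598). With log2(TPM + 1), the M0 difference was -0.41 (limma adjusted p = 0.0775), the increase in WT 0.18 (0.272) and the difference between the responses 0.70 (0.0909). With log2(TPM + 0.1), the M0 difference was called (-0.92, limma adjusted p = 0.0405), whereas the increase in WT (0.31, 0.296) and the difference between the responses (1.38, 0.0733) were not. In KO M0 the 8 neutrophil markers, of which Ly6g was at 0, summed to 5.84 to 6.17 CPM, against 9.27 to 24.1 CPM in WT M0, the 7 stromal markers to 8.08 to 30.8 against 30.8 to 54.1 CPM, and the 7 markers of IL-4-treated macrophages to 149 to 177 against 233 to 318 CPM. Their part in the difference was not tested. Of 8 listed genes of the vitamin D axis only the sterol hydroxylase Cyp27a1 was tested, and it was called in no comparison, with log2 fold changes of KO against WT of -0.36 in M0 and -0.017 in M2.

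As Vdr responded differently in the genotypes, the bases before its RefSeq start (GRCm38.p6, chr15:97908311-97908546, minus strand) are shown 5′ to 3′, up to the nearest exon in GENCODE M21. This start lies inside the longer gene model given above. The capitals mark a match to TTCNNNNGAA, a motif bound by STAT6, the factor activated by IL-4. This motif, which reads the same on both strands in these letters, was found in 5.85% of 32851 windows of 250 bases before RefSeq starts and, among 12 such windows of 8 of the receptor genes, only here. The match is a description and not a measured site.
Vdr: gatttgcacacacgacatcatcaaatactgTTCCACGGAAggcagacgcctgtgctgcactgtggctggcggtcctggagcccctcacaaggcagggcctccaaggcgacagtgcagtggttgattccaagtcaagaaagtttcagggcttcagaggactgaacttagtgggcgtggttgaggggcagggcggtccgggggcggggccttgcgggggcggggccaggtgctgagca

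Nr4a1 (chromosome 15, 101254269 to 101274795, plus strand) was the receptor that IL-4 lowered most. It had 4.72, 4.67 and 5.22 CPM in WT M0 and 1.91, 1.86 and 1.69 CPM in WT M2. In KO it had 4.00, 4.32 and 4.56 CPM in M0 and 2.30, 1.89 and 1.75 CPM in M2. All M2 libraries were far below all M0 libraries. IL-4 lowered Nr4a1 to 0.374 times its level in WT (log2 -1.42, SE 0.14, edgeR adjusted p = 3.24e-06) and to 0.457 times in KO (-1.13, SE 0.13, 1.21e-05), and the responses differed by 0.29 (95% CI -0.13 to 0.71, adjusted p = 0.505). The decrease was called in both genotypes under every alternative tried. In M0 the KO libraries lay below the WT libraries without overlap, but the log2 difference of -0.18 (95% CI -0.45 to 0.095) was not called (0.413), and in M2 it was 0.11 (95% CI -0.21 to 0.43).

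Nr4a2 (chromosome 2, 57106830 to 57124003, minus strand), known from dopaminergic neurons and induced in activated macrophages, had 7 to 24 counts per library. These correspond to 0.679, 0.789 and 0.740 CPM in WT M0, 0.545, 0.361 and 0.358 CPM in WT M2, 0.514, 0.239 and 0.498 CPM in KO M0 and 0.377, 0.285 and 0.377 CPM in KO M2. The WT M0 libraries were above all others. The log2 fold change with IL-4 was -0.79 in WT (95% CI -1.51 to -0.066, edgeR adjusted p = 0.0661) and -0.25 in KO (95% CI -0.98 to 0.47, 0.554), and that of KO against WT -0.83 in M0 (95% CI -1.51 to -0.16, 0.112) and -0.30 in M2 (95% CI -1.08 to 0.47, 0.674). No comparison was called, and the difference between the responses was 0.53 (95% CI -0.50 to 1.56). Nr4a3 (chromosome 4, 48045153 to 48086447, plus strand) had 11 counts in all 12 libraries and 2 at most in 1 library, and 4 libraries had 0, which allows a level of up to 0.081 CPM in the deepest and 0.15 CPM in the shallowest of these 4 (3 counts of the total, counting error only). A difference was not detectable at this depth.

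The NR4A genes are known targets of cyclic AMP signaling, and the bases before their RefSeq starts are shown because the 3 genes, whose levels differ, share a sequence feature there. The sequences run 5′ to 3′ (GRCm38.p6, Nr4a1 at chr15:101266596-101266845 on the plus strand, Nr4a2 at chr2:57124004-57124253 on the minus strand and Nr4a3 at chr4:48045055-48045152 on the plus strand, cut at the first exon in GENCODE M21, so that 3 of its 4 matches are shown). The capitals mark TGACG, the core of the cyclic AMP response element, on either strand. In the whole window of 250 bases each of the 3 genes had 4 matches, while 17.8% of the 32851 windows had at least 1 and 45 windows, or 0.137%, at least 4. The complete palindrome TGACGTCA, which 1.55% of windows hold, was in none of them, and among the other 5 genes scanned, which did not include Nr3c1 and Ppargc1b, only Rxrb had a TGACG, 1 in front of 1 of its 2 starts.
Nr4a1: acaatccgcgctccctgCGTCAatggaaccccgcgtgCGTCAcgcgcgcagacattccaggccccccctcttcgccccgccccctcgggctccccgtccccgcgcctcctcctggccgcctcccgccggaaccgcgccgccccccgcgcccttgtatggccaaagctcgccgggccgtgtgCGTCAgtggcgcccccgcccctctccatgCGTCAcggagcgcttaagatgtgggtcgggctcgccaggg
Nr4a2: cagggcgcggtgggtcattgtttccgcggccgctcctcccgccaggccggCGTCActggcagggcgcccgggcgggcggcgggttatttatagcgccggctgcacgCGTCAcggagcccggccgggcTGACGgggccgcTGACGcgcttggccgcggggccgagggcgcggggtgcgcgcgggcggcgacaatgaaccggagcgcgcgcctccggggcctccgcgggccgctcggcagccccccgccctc
Nr4a3: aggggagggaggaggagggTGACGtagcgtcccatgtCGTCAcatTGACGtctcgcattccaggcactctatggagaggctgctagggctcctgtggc

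Of 19 tested immediate-early genes, which respond to stimuli as quickly as Nr4a1, 9 rose and 5 fell with IL-4 in WT, and 10 rose and 6 fell in KO, where 50.0% and 52.8% of all genes were called. Their median log2 fold change was 0.13 in WT and 0.23 in KO, and that of all genes -0.0076 and 0.014. Fos, a subunit of AP-1, fell (log2 -2.20 in WT and -2.25 in KO), as did Fosb in WT (-2.48), which was low with means of 1.12 CPM in M0 and 0.200 CPM in M2. The zinc finger factor Egr2 rose by 4.64 and 4.92 and the AP-1 subunit Fosl2 by 2.36 and 2.16. In M0 the factors Klf2 (1.06) and Klf6 (0.42) were higher and Fosl1 (-0.30) and Junb (-0.28) lower in KO, beside 9.78% of all genes called, and no gene of the list was called in M2 or in the difference between the responses. Of 11 genes of cyclic AMP signaling and NR4A induction, IL-4 raised 4 in WT and 5 in KO and lowered 2 in each. The prostaglandin E2 receptor Ptger2 rose by 1.66 and 1.96 and the adenosine receptor Adora2a by 1.44 and 1.80, whereas the receptor Ptger4 fell (-1.44 and -1.09). In M0 Adora2b (-0.70) and Ptger4 (-0.47) were lower in KO. No gene of this list was called in M2 or in the difference between the responses, where 2.68% and 3.24% of all genes were called.

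Nr3c1 (chromosome 18, 39410545 to 39519421, minus strand), which encodes the glucocorticoid receptor, fell with IL-4 in both genotypes and further in KO. It had 84.2, 78.4 and 72.3 CPM in WT M0 and 69.8, 67.0 and 64.8 CPM in WT M2. In KO it had 85.7, 84.8 and 83.6 CPM in M0 and 54.3, 58.2 and 56.4 CPM in M2. The KO M2 libraries were below all others, and the M0 libraries of the genotypes overlapped. The log2 fold change with IL-4 was -0.22 in WT (SE 0.06, edgeR adjusted p = 0.00577) and -0.59 in KO (SE 0.06, 1.81e-06), a decrease to 0.858 and 0.665 times the level in M0. The response in KO differed from that in WT by -0.37 (SE 0.08, 95% CI -0.54 to -0.19, adjusted p = 0.0279). By number it was -0.27, -0.23 and -0.16 in WT and -0.66, -0.54 and -0.57 in KO. KO against WT was 0.11 (SE 0.06, 0.230) in M0 and -0.25 (SE 0.06, 0.0387) in M2, where KO had 0.838 times the level of WT.

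The 2 calls of Nr3c1 that involve genotype varied with the method. DESeq2 gave an adjusted p = 0.00391 in M2 and 0.00149 for the difference between the responses, and RLE factors, both filters, posterior mean counts and the replicate block kept both calls. When 1 library was left out, the call in M2 was kept without WT M2 replicate 3 (adjusted p = 0.049) and lost without any other library of the comparison (0.0866 to 0.131). It was also lost with only these 6 libraries (0.0639) and with TPM (0.175 and 0.167), and its log2 fold change lay between -0.29 and -0.22 under the alternatives. The difference between the responses kept its direction (-0.42 to -0.32) and was lost without WT M0 replicate 2, WT M2 replicates 1 or 2, any library of KO M0 or KO M2 replicate 3 (0.0616 to 0.0783) and with TPM (0.199 and 0.198). The decrease with IL-4 in WT was lost with TPM only (limma adjusted p = 0.0655 and 0.0647). In M2 the 7 stromal markers summed to 9.39 to 27.4 CPM in KO and 33.6 to 60.9 CPM in WT, and their part in the M2 differences of Nr3c1 and Ppard was not tested.

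Of 16 tested glucocorticoid-responsive genes, which depend on ligand as well as on receptor, IL-4 raised 2 and lowered 5 in WT and raised 4 and lowered 7 in KO, where 50.0% and 52.8% of all genes were called. Their median log2 fold changes were 0.037 and -0.21, and those of all genes -0.0076 and 0.014. Klf9, a transcription factor induced by glucocorticoids, rose by 3.05 in WT and 2.54 in KO, and the phosphatase Dusp1 fell (-1.56 and -1.97). In M0 Klf9 (0.69) and the kinase Sgk1 (0.27) were higher in KO, 4 genes were lower, among them the metallothionein Mt2 (-0.78), the RNA-binding protein gene Zfp36 (-0.44) and the co-chaperone Fkbp5 (-0.28), and in M2 none was called, where 9.78% of all genes were called in M0 (5.50% higher and 4.27% lower) and 2.68% in M2. The inhibitor of NF-κB Nfkbia fell with IL-4 (-1.44 in WT and -0.91 in KO) and was the only gene of the list with a called difference (0.53, edgeR adjusted p = 0.0144), where 3.24% of all genes were called. Of 7 tested chaperones and co-chaperones that serve the receptor, Hspa8 (0.41), Hsp90ab1 (0.34) and Hsp90aa1 (0.12) rose and Ptges3 fell (-0.14) in WT, and only Hsp90ab1 (0.26) rose in KO. Hspa8, a heat shock cognate protein that delivers the receptor to HSP90, was higher in KO M0 (0.27), its response was lower in KO (-0.50, adjusted p = 0.0183), and no gene of this list was called in M2.

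**Figure D5:**
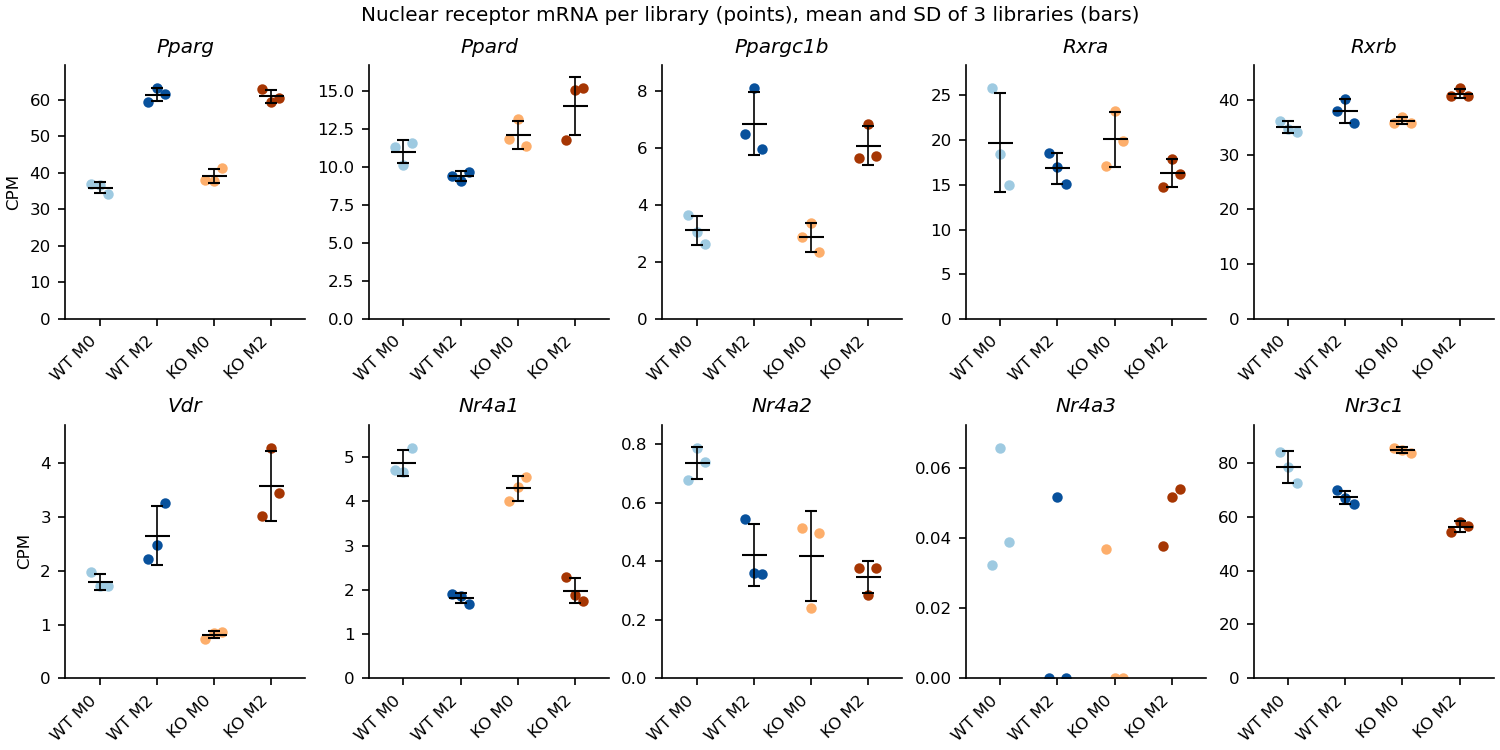
CPM of the 10 genes in each of the 12 libraries (points), with the mean and SD of 3 libraries (bars; not drawn for Nr4a3, which had 0 to 2 counts per library). Pparg, Ppargc1b and Vdr are higher and Nr4a1 and Nr3c1 lower in M2 than in M0 in both genotypes, and Vdr in KO M0 lies at 0.735 to 0.857 CPM, below the 1.71 to 1.97 CPM of WT M0.

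At the level of the gene, the receptors could be counted without ambiguity. Expected counts were whole numbers (within 0.005) for all 10 genes in all libraries, with a posterior SD of 0, so that no read was divided between one of them and another gene, and none of their exons overlapped an exon of another gene in GENCODE M21. The transcript lengths that enter TPM varied between libraries, from 1302 to 3422 nt for Nr4a2 and from 3249 to 4370 nt for Vdr. The part of these lengths in the TPM results was not tested. Over the 12 libraries, the log2 CPM of Pparg was most like that of Gnat3, Ttyh2 and Tmem19 (Pearson r = 0.997, 0.994 and 0.994) and that of Nr4a1 most like Ninj1, Htatip2 and Clec12a (0.994, 0.993 and 0.992). Vdr was most like Plpp3, Spring1 and Nif3l1 (0.975, 0.967 and 0.962) and Nr3c1 most like Dnmt1 and Baz1b (0.990 and 0.989). For the other 5 genes the highest r lay between 0.883 for Nr4a2 with Ngrn and 0.985 for Ppargc1b with Cd300ld3. These values describe libraries of 4 groups that share treatment and depth. After the group means were subtracted, the highest r between receptors were 0.854 for Rxrb with Ppargc1b and 0.845 for Rxra with Nr3c1.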

How the data were processed

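RNA of 12 BMM libraries was sequenced as single reads from a directional library kit. Per the study's methods, the authors aligned the reads to GRCm38/mm10 with Grape-nf. The deposited data hold 1 table per library of 38887 genes with expected counts (estimated counts from a maximum-likelihood fit), posterior mean counts with their standard deviation, and TPM. The annotation release is not given in the sources used here. Submitters' processing notes name FastQC 0.11.2 and DESeq2 1.40.2. The deposited tables of the authors' own comparisons (fold changes, p-values) were used for gene symbols only, which gave 21000 symbols, and GENCODE M21 gave 16570 more. Positions were matched by gene ID, ignoring its version.

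Expected counts were rounded and fitted with edgeR 4.0.16 in R 4.3.3 (filterByExpr by group, TMM, glmQLFit with 1 coefficient per group over 12 libraries, glmQLFTest), with Benjamini-Hochberg adjustment over 12846 genes and calls at 0.05. Confidence intervals (95%) used the fold change, its F statistic and its degrees of freedom. In simulated counts with 200 genes changed by a log2 of 1, 85.5% (IL-4 in WT), 86.0% (IL-4 in KO), 85.0% (M0), 81.5% (M2) and 79.0% (difference between the responses) were recovered. Likeness was computed on log2(CPM + 0.1). Promoter windows came from RefSeq (GRCm38.p6), where 8 of the 10 genes were matched by symbol and scanned.

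M0 and M2 libraries of the same number deviated together (r = 0.331, 0.103 and 0.364 in WT, 0.166, 0.160 and 0.209 in KO), so that the number was taken as the mouse. Between WT and KO r was -0.0684 to 0.0403, and the number did not pair the genotypes. The genes and lists were chosen with earlier results of these data known. All 10 genes were described, and of each list up to 3 called genes per direction with the largest change were eligible to be named. For likeness, the 3 tested genes with the highest r were taken, of which 1 of Nr3c1 is not reported here and those of Ppard, Ppargc1b, Rxra, Rxrb and Nr4a2 are given by the range of their highest r. Alternatives were DESeq2 1.42.0, RLE factors, no filter or a CPM of at least 1 in 3 libraries, limma 3.58.1 on log2(TPM + 1) and log2(TPM + 0.1), posterior mean counts, a replicate block, only the 6 libraries of a comparison, and leaving out each library.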

Additional observations from a re-analysis of the deposited data

Results flagged for a closer look

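KO and WT differed in the IL-4 response of Vdr by a log2 of 1.57 (KO minus WT, edgeR adjusted p = 0.0107) in a test of the difference itself, and each of the 3 KO changes by number (2.01 to 2.34) exceeded each of the 3 WT changes (0.17 to 0.93). The difference was called without any 1 of the 12 libraries but not with limma on TPM (adjusted p = 0.0909 and 0.0733).

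The response of Nr3c1 differed by -0.37 (edgeR adjusted p = 0.0279), with changes of -0.66 to -0.54 in KO and -0.27 to -0.16 in WT. With 1 library removed at a time, 7 of 12 fits did not give this call (adjusted p = 0.0616 to 0.0783), nor did limma on TPM (0.199 and 0.198).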

How the results depend on the processing

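Of 714 values of the 9 tested genes under the alternatives, 649 kept their direction and their side of the threshold, 35 lost and 6 gained a call, and 24 changed sign, none of which was called in either fit. Single genes of the lists were not followed under the alternatives. DESeq2, RLE factors, both filters and posterior mean counts left the numbers of called receptors at 5 (IL-4 in WT), 6 (IL-4 in KO), 1 in M0, 2 in M2 and 2 for the difference between the responses. limma on log2(TPM + 1) called 3 for IL-4 in WT, 5 for IL-4 in KO and 0 in M0, M2 and the difference, and on log2(TPM + 0.1) 3, 5, 1, 0 and 0. With only 6 libraries 4 (IL-4 in WT), 7 (IL-4 in KO), 1 (M0) and 1 (M2) were called. Over all genes, limma called 752 and 700 in M0, 70 and 57 in M2 and 113 and 113 for the difference, DESeq2 713 in M2 and 816 for the difference, and the fit of 6 libraries 165 in M2, against 1256, 344 and 416 with edgeR. With the replicate block, 8 receptors were called for IL-4 in KO and 5, 1, 2 and 2 elsewhere, and 1002 genes for the difference, and among the receptors it changed no call other than those of Ppard and Rxra.

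Leaving out 1 library gave 4 to 5 called receptors for IL-4 in WT, 6 to 7 in KO, 1 in M0, 0 to 2 in M2 and 1 to 3 for the difference, and 5606 to 6182, 6034 to 6367, 461 to 1461, 25 to 298 and 183 to 643 genes. Signs changed with limma for Nr4a2 with IL-4 in KO (0.012 and 0.040), Rxrb in M0 (-0.026 and -0.027) and Nr4a2 in M2 (0.082 and 0.23). Without 1 library they changed for Rxra (IL-4 in WT -0.39 to 0.015, M0 -0.13 to 0.27, M2 -0.12 to 0.030, difference -0.32 to 0.081), Ppargc1b (M0 -0.27 to 0.0029, difference -0.17 to 0.10) and Pparg (M2 -0.034 to 0.010). The low counts of Nr4a2 and Vdr and 3 mice per group limit the precision.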
